A study of Mus musculus with 18 samples.

Results

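The Gadd45 family comprises 3 genes of the 20207 listed in the mRNA-seq tables, Gadd45a, Gadd45b and Gadd45g, which were picked out by gene name. All 3 had at least 1 read in all 18 samples, as did 12731 genes in all, and these were the genes tested. The family was chosen with its read counts and RPKM (reads scaled to the length of the gene and the reads of the library) in these samples already known, so its levels and fold changes are given as a description, without a test. Every sample came from NIH3T3 cells, a mouse fibroblast line, that stably expressed DD-GFP, a destabilizing domain derived from FKBP and fused to superfolder GFP, and that had been sorted for high GFP. S1, the ligand that stabilizes the domain, was kept in the medium during HS and tunicamycin. Cells were left unperturbed at 37°C (control, harvested at 0 min), shifted to 42°C for heat shock (HS) and harvested at 45 or 135 min, or treated with tunicamycin (Tu), which blocks N-linked glycosylation and stresses the endoplasmic reticulum (ER), and harvested at 45, 135 or 405 min. Each of the 6 groups held 3 samples. The labels do not say whether these were separate cultures, so the errors measure the spread between samples, which may be technical, and no untreated sample was harvested at a later time.

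GADD45 proteins are small acidic proteins named for growth arrest and DNA damage. They have no known enzymatic activity and act by binding other proteins: the kinase MAP3K4, which they switch on upstream of p38 and JNK, the DNA clamp PCNA and the CDK inhibitor p21, the CDK1 and cyclin B1 complex, and factors of active DNA demethylation. Gadd45a is a classical p53 target that is also transcribed in ER stress, whereas Gadd45b (MyD118) and Gadd45g (CR6) were first described as early response genes of differentiation and cytokine signalling.

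In these cells the 3 genes did not move as one. The mean level of Gadd45g was highest in the HS groups and that of Gadd45b was above control under both stresses. Gadd45a was highest with tunicamycin, and at 405 min it averaged 265 ± 21.2 RPKM against 9.82 ± 1.02 RPKM in control (SD, n = 3). Gadd45g at 405 min of tunicamycin was below control, at 11.1 ± 1.61 against 17.6 ± 2.55 RPKM (SD, n = 3).

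On mm9, Gadd45a lies on chromosome 6 from 66985090 to 66987401 on the minus strand, Gadd45b on chromosome 10 from 80392836 to 80394949 on the plus strand, and Gadd45g on chromosome 13 from 51942044 to 51943841 on the plus strand. Each has 4 exons in the longest GENCODE transcript of the gene, with a coding length of 498, 483 and 480 bases in that order. The coding sequences were 60.5% identical between Gadd45a and Gadd45b, 62.5% between Gadd45a and Gadd45g and 64.9% between Gadd45b and Gadd45g. The transcripts differed in base composition: GC content was 49.8% for Gadd45a, 56.7% for Gadd45b and 59.9% for Gadd45g, which placed Gadd45g at percentile 94.9 of the genes with a transcript. The 250 bases before each gene start are printed below because the 3 genes differed in response while carrying some of the same letters there. They are read 5′ to 3′ along the gene, in lower case, with the motif matches in capitals, from chr6:66987402-66987651 (minus), chr10:80392586-80392835 (plus) and chr13:51941794-51942043 (plus) of mm9.
Gadd45a: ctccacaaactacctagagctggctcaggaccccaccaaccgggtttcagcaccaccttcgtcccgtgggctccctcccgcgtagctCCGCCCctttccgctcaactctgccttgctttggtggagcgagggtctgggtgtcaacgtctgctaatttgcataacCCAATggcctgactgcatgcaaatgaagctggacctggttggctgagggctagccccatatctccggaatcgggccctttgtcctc
Gadd45b: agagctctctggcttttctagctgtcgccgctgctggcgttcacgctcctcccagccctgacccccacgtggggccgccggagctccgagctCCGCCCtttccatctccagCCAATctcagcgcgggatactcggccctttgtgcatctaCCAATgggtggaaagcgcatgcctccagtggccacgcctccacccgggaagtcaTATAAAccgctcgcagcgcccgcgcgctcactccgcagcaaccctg
Gadd45g: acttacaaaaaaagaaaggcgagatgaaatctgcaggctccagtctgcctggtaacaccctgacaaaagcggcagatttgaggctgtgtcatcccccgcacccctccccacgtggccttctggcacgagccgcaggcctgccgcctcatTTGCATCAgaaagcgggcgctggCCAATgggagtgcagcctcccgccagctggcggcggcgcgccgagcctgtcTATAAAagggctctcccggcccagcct

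Capitals mark matches, on either strand, to any of 8 motifs, and distances count bases before the gene start. CCAAT, the box read by NF-Y, occurred in all 3 windows: at 86 to 82 in Gadd45a, at 139 to 135 and 100 to 96 in Gadd45b, and at 78 to 74 in Gadd45g. It also occurred in 34.8% of the 18282 promoters of the same length. TATAAA was found in Gadd45b (46 to 41) and Gadd45g (27 to 22) and in 11.4% of promoters, and the GC box GGGCGG, on the opposite strand, in Gadd45a (163 to 158) and Gadd45b (158 to 153) and in 47.0% of promoters. TGATGNAA, a composite site of C/EBP and ATF factors, had 1 match, in Gadd45g on the opposite strand (TTGCATCA, 101 to 94), and was held by 2.7% of promoters. The letters TGACGTCA (CRE, in 2.2% of promoters), TGACTCA (AP-1, 3.8%), GAANNTTC (a pair of heat shock units, 5.7%) and the ER stress response element, which contains CCAAT (0.1%), had no match in these 3 windows. GC content of the windows was 59.2%, 65.2% and 62.0% in the order printed, where the median promoter had 57.2%.

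The samples held between 33415592 and 66478268 reads counted on genes, so that 3 reads corresponded to 0.0451 to 0.0898 CPM (reads scaled to the library total). All Gadd45 values lay far above this limit, with at least 601 reads per sample. The fibroblast genes Col1a1, Col1a2, Col3a1, Vim, Thy1 and Pdgfrb were at 10.2 RPKM or more in every sample, and Ptprc, Epcam, Cdh1, Pecam1, Cdh5 and Des, which mark leukocytes, epithelium, endothelium and muscle, at 0.390 RPKM or less. Summed, the 6 fibroblast genes had 5219 to 6202 RPKM in control, 6343 to 10560 and 6709 to 10380 at 45 and 135 min of HS, and 4815 to 6296, 5443 to 7555 and 2924 to 3342 with tunicamycin in order of time. The other 6 summed to 0.226 to 0.287 RPKM in control and at most 0.534 elsewhere, with Ptprc at 0 reads in 11 and Epcam in 15 samples. The part of the lower fibroblast sum in the results at 405 min of tunicamycin was not tested. As measured in bulk, fewer cells that express these genes and less of their RNA per cell cannot be told apart. A pair of HS libraries stood apart from their groups. A GC tilt was computed for each library as the median deviation from the group mean, in log2(CPM + 1), of the 20% of genes with the highest GC content minus that of the 20% with the lowest. It was −0.86 in HS 45 min replicate 3, against 0.34 and 0.50 in the other two replicates, and −0.72 in HS 135 min replicate 1, against 0.80 and −0.10. The log2 fold changes of Gadd45b and Gadd45g from control under HS are therefore given with and without these libraries.

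Gadd45a had 10.1, 8.69 and 10.7 RPKM in control and 18.9, 17.5 and 16.8 RPKM at 45 min of HS. Later in HS, at 135 min, it had 32.3, 34.5 and 35.3 RPKM. With tunicamycin it had 127, 133 and 147 RPKM at 45 min, then 33.8, 29.1 and 29.4 RPKM at 135 min, and 242, 284 and 269 RPKM at 405 min. Ordered by group mean, control (9.82) was followed by HS 45 min (17.7), Tu 135 min (30.8), HS 135 min (34.0), Tu 45 min (135) and Tu 405 min (265 RPKM). Neighbours in this order did not overlap between samples, except Tu 135 min and HS 135 min. Among the 12731 genes, the level of Gadd45a lay at percentile 58.8 in control and 97.9 at 405 min of tunicamycin.

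Gadd45b had 22.5, 22.8 and 25.9 RPKM in control. After 45 min of HS it had 107, 107 and 52.9 RPKM, and at 135 min of HS 35.8, 59.6 and 57.6 RPKM. With tunicamycin it had 52.0, 61.4 and 64.7 RPKM at 45 min, 34.1, 24.0 and 26.8 RPKM at 135 min, and 42.4, 56.1 and 50.8 RPKM at 405 min. The low values under HS came from the libraries with the low GC tilt. Group means ran from control (23.7) and Tu 135 min (28.3) to Tu 405 min (49.8), HS 135 min (51.0), Tu 45 min (59.4) and HS 45 min (89.1 RPKM). In that order, only Tu 135 min and Tu 405 min were neighbours without an overlap, so the groups from Tu 405 min upward could not be put in order beyond their spread.

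Gadd45g had 14.7, 19.4 and 18.7 RPKM in control. After 45 min of HS it had 150.3, 140.0 and 48.6 RPKM, and at 135 min of HS 37.98, 137 and 136 RPKM. With tunicamycin it had 39.4, 46.2 and 47.8 RPKM at 45 min, 43.8, 24.0 and 28.9 RPKM at 135 min, and 9.38, 12.6 and 11.2 RPKM at 405 min. Even the lowest HS sample was above every control sample, and the highest sample at 405 min of tunicamycin was below every control sample. Group means ran from Tu 405 min (11.1), control (17.6) and Tu 135 min (32.2) to Tu 45 min (44.5), HS 135 min (103) and HS 45 min (113 RPKM). The neighbours from Tu 135 min upward overlapped, and the others did not.

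**Figure D1:**
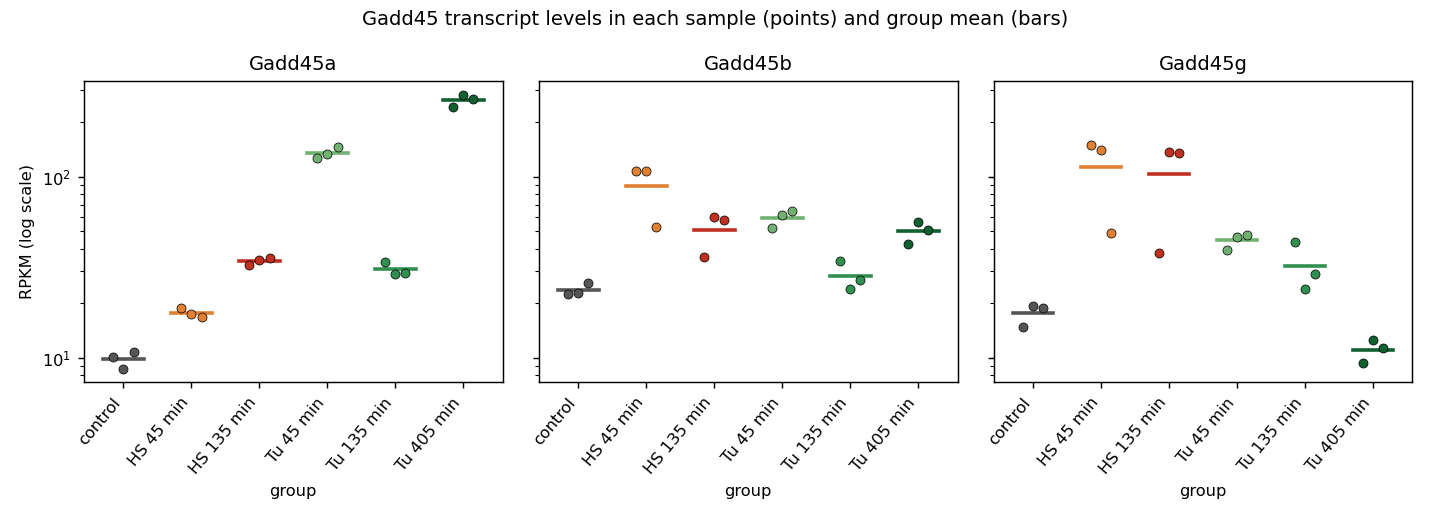
RPKM on a log axis of Gadd45a, Gadd45b and Gadd45g by group, with a point for each of the 3 samples and a bar at the group mean. Gadd45a reaches 242 to 284 RPKM at 405 min of tunicamycin while Gadd45g lies at 9.38 to 12.6 RPKM, and in each HS group 1 sample of Gadd45b and Gadd45g lies below the other two.

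Summed over the family, RPKM was 51.1 ± 4.0 in control and 219.7 ± 88.0 at 45 min and 189 ± 71.4 at 135 min of HS (SD, n = 3). With tunicamycin the sum was 239 ± 20.3 at 45 min, 91.3 ± 18.1 at 135 min and 326 ± 29.7 at 405 min. The members contributed in different proportions. Gadd45b held the highest share in control (46.4% ± 1.41), followed by Gadd45g (34.3% ± 3.55) and Gadd45a (19.3% ± 2.16). Gadd45g held 49.5% ± 7.31 at 45 min and 51.5% ± 13.6 at 135 min of HS, with 41.1% in HS 45 min replicate 3 and 35.8% in HS 135 min replicate 1. With tunicamycin, Gadd45a held 56.7% ± 1.49 at 45 min, 34.2% ± 3.75 at 135 min, when Gadd45g (34.8% ± 4.09) and Gadd45b (31.0% ± 0.50) held similar shares, and 81.4% ± 0.94 at 405 min. Gadd45g made up 3.4% ± 0.19 at that time.

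**Figure D2:**
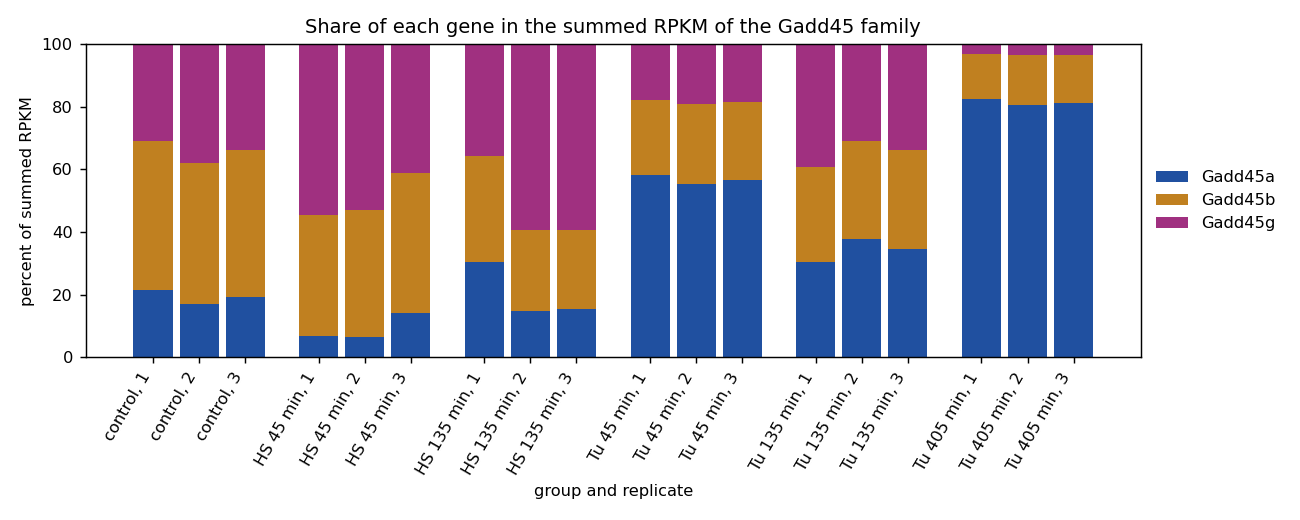
Percent of the summed RPKM of the family given by each gene, with 1 stacked bar for each of the 18 samples. Gadd45a fills 80.5% to 82.4% of the bars at 405 min of tunicamycin and 6.8%, 6.6% and 14.2% of those at 45 min of HS.

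Fold changes were estimated against the same 3 control samples in 5 comparisons, so these comparisons are not independent. At 45 min of HS, the log2 fold change was 2.93 (standard error 0.492) for Gadd45g, 2.14 (0.366) for Gadd45b and 1.04 (0.237) for Gadd45a. Ordered by log2 fold change, Gadd45g ranked 6, Gadd45b 32 and Gadd45a 708 of 12731 genes. All 3 members had every HS sample above every control sample, as had 12.5% of all genes. No gene (0% of 12731) passed an adjusted p of 0.05 by edgeR, although 2480 genes had an unadjusted p under 0.05 and DESeq2 called 451. Without HS 45 min replicate 3, the log2 fold changes were 3.33 (Gadd45g), 2.46 (Gadd45b) and 1.17 (Gadd45a), and edgeR then called 5786 genes. With an offset for GC content they were 2.23, 1.76 and 1.30.

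At 135 min of HS, the log2 fold change of Gadd45g was 2.81 (standard error 0.519), that of Gadd45a 1.99 (0.222) and that of Gadd45b 1.33 (0.291). The ranks were 65, 198 and 619 in that order. All 3 lay wholly above control, as did 18.1% of the genes tested. Without HS 135 min replicate 1 the values were 3.24, 2.11 and 1.59, and with the GC offset 2.33, 2.16 and 1.10. Directly compared, HS 135 min differed from HS 45 min by 0.90 (0.221) in log2 for Gadd45a, the 1 member whose 135 min samples all lay above those of 45 min, where 9.43% of genes did. Gadd45b differed by −0.86 (0.435) and Gadd45g by −0.18 (0.680), with overlapping samples. With 1 replicate left out, the Gadd45b difference ran from −1.19 to −0.61, and no fit left out both libraries with the low GC tilt. For Gadd45g the sign of this difference turned without HS 45 min replicate 1 (0.09), HS 45 min replicate 2 (0.07) or HS 135 min replicate 1 (0.25), and with the GC offset (0.10).

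At 45 min of tunicamycin, Gadd45a had a log2 fold change of 3.71 (standard error 0.155), a 13.1-fold higher level, and ranked 2 of 12731 genes. Gadd45b (1.25, standard error 0.142) and Gadd45g (1.27, 0.154) were 2.38-fold and 2.41-fold higher, at ranks 220 and 212. The samples of all 3 lay wholly above control, beside 17.2% of genes. At 135 min the values were lower for each gene: 1.71 (0.193) for Gadd45a, 0.95 (0.270) for Gadd45g and 0.32 (0.205) for Gadd45b, whose samples overlapped those of control. Here 2 of 3 lay wholly above control, as did 13.7% of genes. The GC tilt of Tu 135 min replicate 1 was 0.59, and without this library Gadd45g had 0.61, Gadd45b 0.12 and Gadd45a 1.59. Compared with 45 min of tunicamycin, Gadd45a at 135 min differed by −2.00 (0.157), Gadd45b by −0.92 (0.202) and Gadd45g by −0.31 (0.264) in log2, and the samples of Gadd45a and Gadd45b lay wholly below, beside 13% of genes.

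At 405 min of tunicamycin the family split. Gadd45a had a log2 fold change of 4.84 (standard error 0.166), a 28.7-fold higher level than control, and ranked 15. Gadd45b had 1.16 (0.151), at rank 861, and Gadd45g had −0.57 (0.169), at rank 9633. The samples lay wholly above control for 2 members and wholly below for 1, as they did for 29.2% and 29.5% of genes. Between 135 and 405 min the log2 difference was 3.10 (0.172) for Gadd45a, 0.81 (0.213) for Gadd45b and −1.56 (0.284) for Gadd45g, and no member overlapped, beside 29.8% of genes wholly higher and 26.9% wholly lower.

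**Figure D3:**
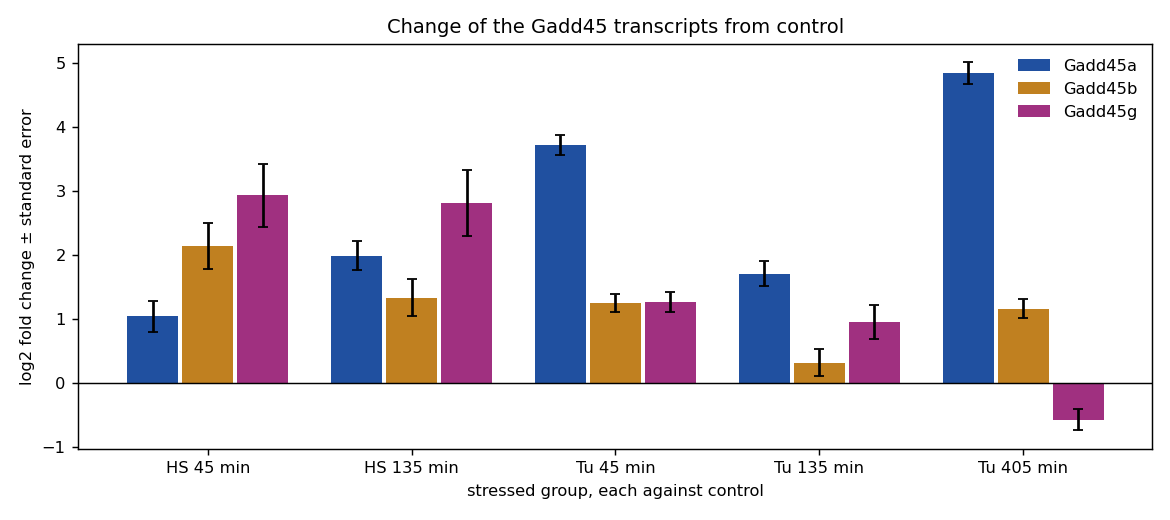
Log2 fold change from control of Gadd45a, Gadd45b and Gadd45g (bars from 0, error bars ± 1 standard error of the edgeR fit of 3 against 3 samples) in the 5 stressed groups. Gadd45g has the highest bar in both HS groups (2.93 and 2.81) and Gadd45a in the tunicamycin groups (3.71, 1.71 and 4.84), and the 1 bar under 0 is Gadd45g at 405 min (−0.57).

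HS and tunicamycin were also compared directly at the same times, without the control samples. At 45 min, HS gave less Gadd45a than tunicamycin by 2.66 in log2 (−2.66, standard error 0.190), a 6.30-fold lower level, and more Gadd45g (1.68, 0.481). All samples of these genes were apart, in 1 member higher and 1 lower, beside 13.1% and 15.7% of genes. For Gadd45g they were barely apart, with 48.6 RPKM in the lowest HS sample and 47.8 RPKM in the highest tunicamycin sample. Gadd45b differed by 0.90 (0.361), with an overlap. Without HS 45 min replicate 3 the differences were −2.52 for Gadd45a, 2.08 for Gadd45g and 1.23 for Gadd45b. With the GC offset they were −2.37, 1.09 and 0.60, and with the replicate block added −2.41, 1.0 and 0.56. At 135 min the differences were 0.27 (0.202) for Gadd45a, 0.99 (0.318) for Gadd45b and 1.84 (0.561) for Gadd45g, and 0 of 3 members were wholly higher or lower, beside 13.4% and 13.1% of genes. In Gadd45g this overlap came from HS 135 min replicate 1 (37.98 RPKM) and Tu 135 min replicate 1 (43.8 RPKM), and without the former the difference was 2.27. The Gadd45b difference at 135 min ran from 0.82 to 1.25 with 1 replicate left out.

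The position of a sample within its group often, but not always, went with the GC tilt of its library. In HS 45 min replicate 3, log2(CPM + 1) lay below the group mean by 1.25 for Gadd45g (−1.25), by 0.88 for Gadd45b (−0.88) and by 0.28 for Gadd45a (−0.28). In HS 135 min replicate 1 the deviations were −1.39, −0.64 and −0.24 in the same order. Their order followed the GC content of the 3 transcripts in both libraries. Control replicate 1 was tilted the other way (0.44), yet Gadd45g deviated there by −0.18. Control replicates 2 and 3 had tilts of −0.22 and −0.23, with Gadd45g deviating by 0.13 and 0.05. In HS 135 min replicate 3 (tilt −0.10), Gadd45g deviated by 0.62 and Gadd45b by 0.23. The part of GC content in the level of Gadd45g was not tested beyond the offset, and that offset would take out a real change tied to GC as well.

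**Figure D4:**
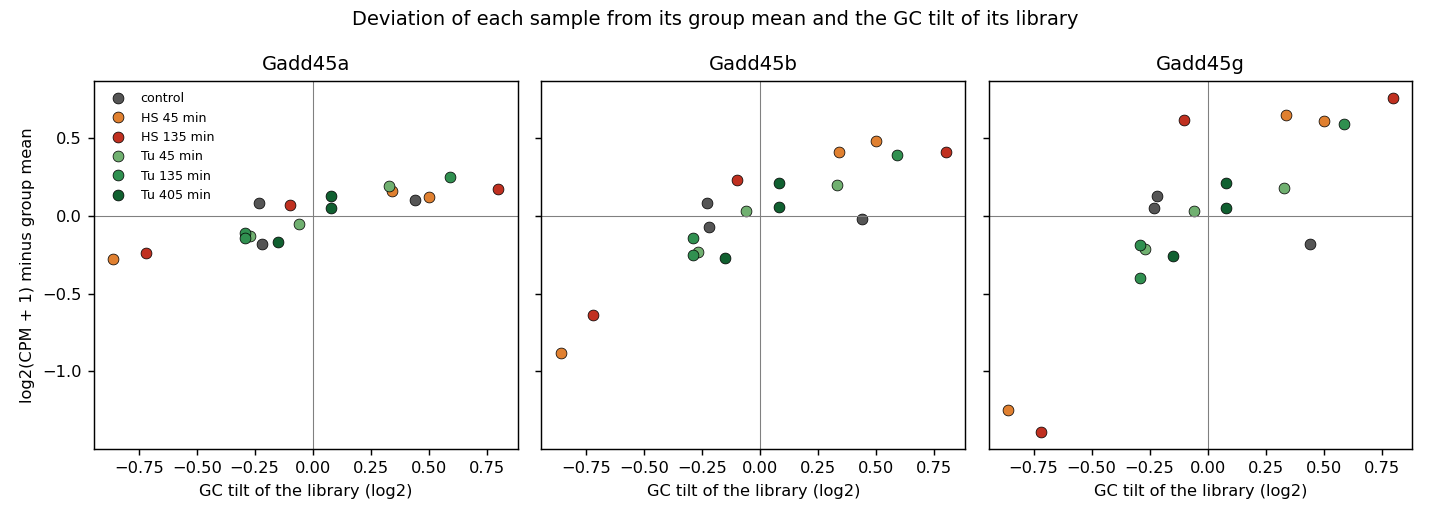
Deviation of each sample from its group mean in log2(CPM + 1) (y axis) against the GC tilt of its library in log2 (x axis), with 1 point per sample coloured by group. The lowest points of Gadd45g and Gadd45b are HS 45 min replicate 3 (tilt −0.86) and HS 135 min replicate 1 (tilt −0.72), and the Gadd45a deviations stay between −0.28 and 0.25.

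The genes with the pattern most like each member were sought among all genes tested, by the root-mean-square difference over the 18 samples in log2(CPM + 1) after centring on the control mean. Gadd45a was nearest to Myd116 (also named Ppp1r15a or GADD34, which recruits the phosphatase that removes phosphate from eIF2α) at 0.367, Ddit3 (CHOP or GADD153, a pro-apoptotic transcription factor of ER stress) at 0.444 and Herpud1 (an ER membrane protein of ER-associated degradation) at 0.740. The nearest genes thus included the other named members of the growth arrest and DNA damage group, while Gadd45b and Gadd45g lay farther off at 1.93 and 2.54. Gadd45b was nearest to Id3 (an inhibitor of basic helix-loop-helix factors, 0.323), Amotl2 (an angiomotin of the Hippo pathway, 0.326) and Plekha4 (0.343), and was at 0.961 from Gadd45g. Gadd45g had no neighbour as close: Phlda1 was at 0.595, Atoh8, a basic helix-loop-helix factor, at 0.634, and Sox9, a transcription factor of chondrocytes, at 0.696. These genes were picked for their likeness, so the following values are a description. After 45 min of HS, Phlda1 had a log2 fold change of 3.36 (standard error 0.548) and Id3 of 1.53 (0.344), and at 405 min of tunicamycin Phlda1 had 0.01 (0.171), Atoh8 0.07 (0.143) and Sox9 −0.65 (0.211). In the libraries with the low GC tilt, Phlda1 had 119 RPKM against 386 and 436 RPKM in the other two (HS 45 min), and 104 against 425 and 497 RPKM (HS 135 min), the same samples in which Gadd45g was low. The neighbours of Gadd45b were low there too. Amotl2 had 134 against 258 and 285 RPKM (HS 45 min), and 117 against 254.5 and 235 RPKM (HS 135 min). Id3 had 121 against 189 and 244 RPKM, and 97.4 against 209 and 189 RPKM, at the same times. Plekha4 had 2.41 against 4.89 and 6.02 RPKM, and 2.165 against 5.38 and 3.32 RPKM. The distances include these libraries, and their part in the likeness was not tested.

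**Figure D5:**
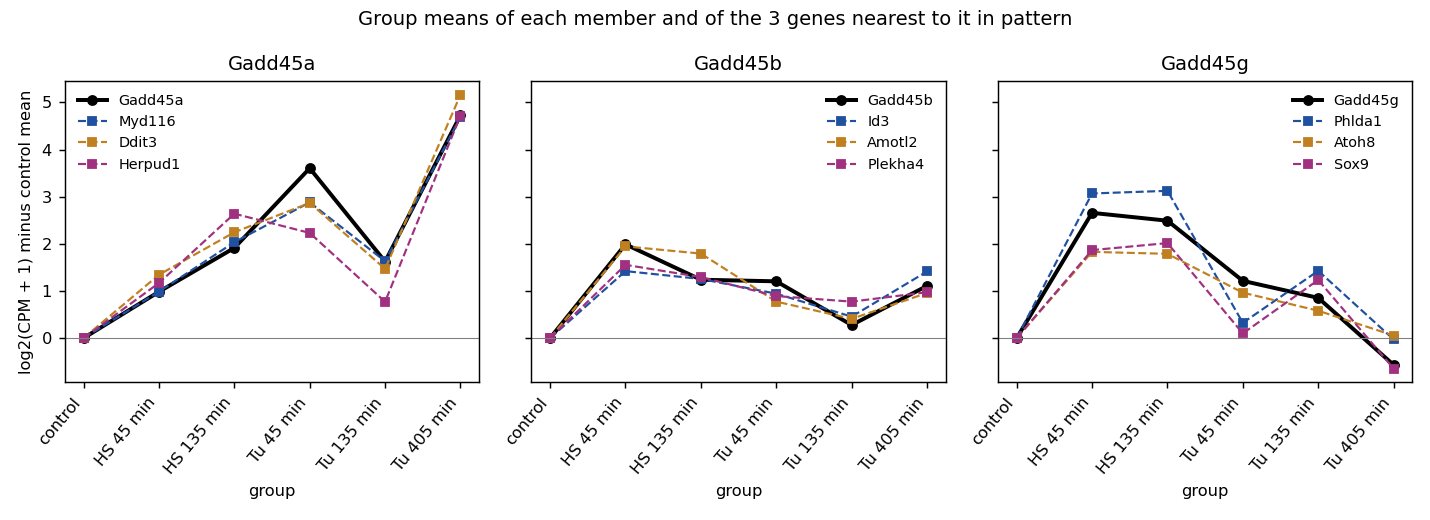
Group means of log2(CPM + 1) minus the control mean for each member (black) and for the 3 genes nearest to it in pattern (dashed). Gadd45a, Myd116 and Ddit3 run together with a dip at 135 min of tunicamycin, whereas Gadd45g, Phlda1, Atoh8 and Sox9 are highest in the HS groups.

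Myd116 and Ddit3 are the other growth arrest and DNA damage genes and were tested against control. Both were on the list by name. That list was chosen with earlier results of these data known, and their likeness to Gadd45a was found in these same samples. The p-values are therefore no independent support. Both rose at 135 min of HS, at 45 min of tunicamycin and at 405 min of tunicamycin (2 of 2 genes each time). Of all genes, 4.75%, 4.01% and 23.3% rose in these comparisons. Ddit3 had 69.6, 68.9 and 72.9 RPKM in control and 2094, 2632 and 2640 RPKM at 405 min, 5.22 higher in log2 (standard error 0.186, edgeR adjusted p = 2.45e-06). Myd116 had 10.8, 10.9 and 11.5 RPKM in control and 271, 276 and 296 RPKM at 405 min, 4.76 higher in log2 (0.140, edgeR adjusted p = 1.18e-06). Myd116 rose at 45 min of tunicamycin by 2.94 (0.134, adjusted p = 8.81e-05) and Ddit3 by 2.92 (0.192, adjusted p = 0.000836). By 135 min of tunicamycin both were lower than at 45 min, as Gadd45a was, in a comparison where 0.291% of genes passed: Myd116 by 1.25 in log2 (−1.25, standard error 0.169, adjusted p = 0.0470, edgeR) and Ddit3 by 1.38 (−1.38, 0.271, adjusted p = 0.109), and of these differences that of Ddit3 did not pass. The call of Myd116 was lost without Tu 45 min replicate 1 (adjusted p = 0.234), 2 (0.391) or 3 (0.239), Tu 135 min replicate 2 (0.242) or Tu 135 min replicate 3 (0.194), while Ddit3 passed without Tu 135 min replicate 1 (0.0197). The rise at 135 min of HS was 2.19 (Myd116, adjusted p = 0.0199) and 2.32 (Ddit3, adjusted p = 0.0122). These HS calls were lost without control replicate 2 (adjusted p = 0.110 and 0.0866), control replicate 3 (0.111 and 0.0860) or HS 135 min replicate 3 (0.115 and 0.0761), and that of Myd116 also without control replicate 1 (0.0542). Their log2 values at 45 min of HS were 1.07 and 1.39 (both with adjusted p = 0.227 from edgeR).

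The partners and regulators of the family were followed as a list of 45 genes, of which 44 were tested. Tet3 was not analysed here. Against control, 0 of 44 passed at 45 min of HS, 7 rose and 2 fell at 135 min of HS, and with tunicamycin 7 rose and 3 fell at 45 min, 3 rose and 0 fell at 135 min, and 10 rose and 13 fell at 405 min. Of all genes, 0% passed at 45 min of HS, 4.75% rose and 2.64% fell at 135 min of HS, and with tunicamycin 4.01% rose and 2.17% fell at 45 min, 0.126% and 0.00785% at 135 min, and 23.3% and 23.5% at 405 min. The share of calls that were higher was 64.3% at 135 min of HS (53.9% on total counts), and with tunicamycin 64.9% at 45 min (83.0% on total counts and 46.6% with the GC offset) and 94.1% at 135 min (69.6% with the GC offset). The median log2 fold change of the list was −0.08, −0.09, −0.08, 0.02 and −0.05, beside −0.03, −0.02, 0, 0 and −0.01 for all genes tested. Without HS 45 min replicate 3, 31 of the 44 passed at 45 min of HS. For the later HS time, 1 passed without control replicate 2, control replicate 3 or HS 135 min replicate 3. The count at 45 min of tunicamycin was 18 without control replicate 1, 4 without control replicate 2, control replicate 3 or Tu 45 min replicate 2, and 6 without Tu 45 min replicate 1 or 3. That at 135 min was 1 without control replicate 1, 0 without control replicate 2, control replicate 3, Tu 135 min replicate 2 or Tu 135 min replicate 3, and 6 without Tu 135 min replicate 1.

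Among the transcription factors that act on Gadd45 genes, Atf3, a stress-induced bZIP factor, had the largest change past the threshold on this list in 4 comparisons with control. It rose by 5.62 in log2 at 135 min of HS (standard error 0.423, adjusted p = 0.00485, edgeR), by 4.85 at 45 min (0.200, adjusted p = 8.81e-05) and by 6.52 at 405 min of tunicamycin (0.178, adjusted p = 1.18e-06), from 0.445 ± 0.0622 RPKM in control (SD, n = 3). Atf4, the effector of the integrated stress response, rose by 1.57 at 135 min of HS (adjusted p = 0.0201, edgeR), 0.76 at 45 min (adjusted p = 0.0144) and 1.61 at 405 min of tunicamycin (adjusted p = 5.58e-05). It had 1.14 at 45 min of HS (adjusted p = 0.227) and 0.91 at 135 min of tunicamycin (0.111). Its call at 135 min of HS was lost without control replicate 2 (adjusted p = 0.111), control replicate 3 (0.120) or HS 135 min replicate 3 (0.116), and that at 45 min of tunicamycin without control replicate 2 (0.0823), control replicate 3 (0.0896), Tu 45 min replicate 1 (0.0537) or Tu 45 min replicate 2 (0.100). Atf3 had 2.71 at 45 min of HS (adjusted p = 0.227), and without HS 45 min replicate 3 it had 2.99 (adjusted p = 0.00105) and Atf4 1.38 (0.00198).

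Myc, which represses Gadd45a in other settings, had a mean above control in every stressed group. With tunicamycin it rose by 1.85 at 45 min (adjusted p = 0.00122, edgeR) and by 2.26 at 405 min (2.31e-05), and it rose by 1.44 at 135 min of HS (adjusted p = 0.0210). Its mean was 65.8 ± 8.6 RPKM in control, 123 ± 29.5 at 45 min of HS and 158 ± 20.9 at 135 min of tunicamycin (SD, n = 3). Foxo3, a forkhead factor, rose by 1.13 at 135 min of HS (adjusted p = 0.0316, edgeR). Both HS calls were lost without control replicate 2 (adjusted p = 0.110 for Myc and 0.166 for Foxo3), control replicate 3 (0.123 and 0.170) or HS 135 min replicate 3 (0.120 and 0.134). Cebpb, a bZIP factor, rose by 0.91 at 45 min of tunicamycin (adjusted p = 0.0424, edgeR), a call lost without control replicate 2 (0.114), control replicate 3 (0.132), Tu 45 min replicate 2 (0.190) or Tu 45 min replicate 3 (0.116). At 45 min of HS it had 1.62 (adjusted p = 0.227, edgeR). Its mean was 48.4 ± 7.28 RPKM in control, 126 ± 47.1 at that HS time and 126 ± 23.8 at 405 min of tunicamycin (SD, n = 3). At 135 min of tunicamycin, 2 of the 17 factors rose, beside 0.126% of all genes. These were Egr1, an immediate-early zinc finger factor, by 2.18 (standard error 0.198, adjusted p = 0.0128, edgeR) and Atf3 by 2.19 (0.268, adjusted p = 0.0457), and Myd116 was the third gene of the list, by 1.69 (0.183, adjusted p = 0.0370). Same-numbered samples deviated together in this comparison. With the number as a block, the adjusted p was 0.0694 for all 3 genes and 0 of the 44 passed. All 3 calls were also lost without control replicate 2 (adjusted p = 0.162 for Egr1, 0.319 for Atf3 and 0.319 for Myd116), control replicate 3 (0.0993, 0.347 and 0.245), Tu 135 min replicate 2 (0.103, 0.121 and 0.121) or Tu 135 min replicate 3 (0.0828, 0.203 and 0.132), and those of Atf3 and Myd116 without control replicate 1 (adjusted p = 0.0680 for both). At 135 min, HS and tunicamycin differed directly in Atf3, which was higher under HS by 3.42 in log2 (0.378, adjusted p = 0.0182, edgeR), and in Egr1, which was lower by 3.22 (−3.22, 0.245, adjusted p = 0.0127), where 2.12% of genes passed. Both of these calls were lost without HS 135 min replicate 3 (adjusted p = 0.140 for both), Tu 135 min replicate 2 (0.163 for Atf3 and 0.111 for Egr1) or Tu 135 min replicate 3 (0.135 and 0.0995), and that of Atf3 also without Tu 135 min replicate 1 (0.0688).

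Of the p53 targets followed, Cdkn1a passed in 1 comparison and Mdm2 in none. Cdkn1a, the p53 target that encodes p21, rose by 0.80 at 135 min of HS (standard error 0.182, adjusted p = 0.0405, edgeR), and had −0.07 at 45 min of HS (adjusted p = 0.834). With tunicamycin Cdkn1a had −0.20, −0.02 and 0.12, in order of time (adjusted p = 0.325, 0.964 and 0.397). The HS call was lost without control replicate 1 (adjusted p = 0.0665), control replicate 2 (0.178), control replicate 3 (0.202) or HS 135 min replicate 3 (0.188). Mdm2, a p53 target and the p53 ubiquitin ligase, had −0.40 and 0.50 at the HS times (adjusted p = 0.360 and 0.178), and with tunicamycin 0.11, 0.27 and 0.33 in order of time (adjusted p = 0.698, 0.617 and 0.0703). Without HS 45 min replicate 3 it had −0.69 at that time (adjusted p = 0.0229), whereas with the GC offset the sign turned (0.07). With that offset it passed at 135 min of HS (0.86, adjusted p = 0.0133) and at 405 min of tunicamycin (0.42, adjusted p = 0.00574). Trp53, which encodes p53 and is on the list, had 167 ± 5.70 RPKM in control and 287 ± 12.8 RPKM at 405 min of tunicamycin (SD, n = 3). Its samples there lay wholly above control, as did those of 29.2% of genes. In the other groups its mean ran from 143 to 168 RPKM.

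Of the proteins that GADD45 binds or acts through, the 9 genes of the MAP kinase route gave 0 higher and 6 lower at 405 min of tunicamycin, with a median log2 fold change of −0.94 beside −0.01 for all genes, of which 23.5% were called lower. Map3k4, the kinase that GADD45 proteins bind and activate, fell by 0.99 at that time (−0.99, standard error 0.115, adjusted p = 0.000347, edgeR), from 13.4 ± 0.378 to 6.39 ± 0.419 RPKM (SD, n = 3). It had −0.08 and 0.00 at the HS times (adjusted p = 0.766 and 0.998), and −0.02 and −0.04 at the earlier times of tunicamycin (adjusted p = 0.941 and 0.916). The p38 and JNK kinase genes Mapk14, Map2k3, Map2k6, Map2k4 and Mapk11 made up the rest of the 6, with log2 fold changes of −1.20, −1.12, −1.06, −0.94 and −0.48, and the call of Mapk11 was lost without Tu 405 min replicate 2 (adjusted p = 0.0652) or 3 (0.0659). Map2k7, not among the 6, had 24.6 RPKM from 4180 reads in control replicate 1. In control replicate 2, a larger library, it had 20.9 RPKM from 2319 reads, so its counts covered unlike lengths. It remains in the list of 9 and its median. Gadd45a transcript was at its highest in the group in which that of Map3k4 was at its lowest.

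The 7 cell cycle partners gave 1 higher and 2 lower at 405 min of tunicamycin. At that time 23.3% of all genes were called higher and 23.5% lower, which also stands beside the demethylation and RNA-binding counts below. These short lists were not tested against those shares. Gadd45gip1 (CRIF1, a mitochondrial and nuclear protein that binds GADD45) rose by 1.0 (standard error 0.233, adjusted p = 0.00862, edgeR), with 0.69 and 0.39 at the HS times (adjusted p = 0.291 and 0.453) and 0.24 and 0.04 at the earlier times of tunicamycin (adjusted p = 0.572 and 0.949). Without HS 45 min replicate 3 it had 0.93 at 45 min of HS (adjusted p = 0.0416). Ccnb1, which encodes cyclin B1, and Pcna were the 2 that fell, by 1.07 (−1.07) and 0.99 (−0.99). Ccnb1 also fell at 45 min of tunicamycin, by 1.47 (−1.47, 0.248, adjusted p = 0.0202, edgeR), a call lost without control replicate 2 (adjusted p = 0.0721), control replicate 3 (0.0800) or Tu 45 min replicate 2 (0.0984). Its log2 fold changes under HS were larger but did not pass. They were −2.29 at 45 min (0.814, adjusted p = 0.234, edgeR) and −2.51 at 135 min (0.791, adjusted p = 0.0863). Its mean was 51.9 ± 6.92 RPKM in control, and 10.4 ± 13.0 and 8.52 ± 7.57 RPKM at these HS times (SD, n = 3). Of 6 tested genes of the demethylation route, 0 rose and 2 fell at 405 min: Tet1 by 1.93 (−1.93, 0.193, adjusted p = 0.000168, edgeR) and Tet2 by 1.62 (−1.62, 0.275, adjusted p = 0.00203), both oxidases of methylated cytosine, at 0.0939 and 0.389 RPKM on average. Of the 3 RNA-binding regulators, Hnrnpd (AUF1, which destabilizes the Gadd45a mRNA) rose by 0.60 at 405 min (0.208, adjusted p = 0.0439, edgeR), a call lost without control replicate 2 (0.0619), control replicate 3 (0.103), Tu 405 min replicate 2 (0.167) or Tu 405 min replicate 3 (0.0789), and 0 of 3 passed in the other 4 comparisons with control.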

How the data were processed

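Poly(A) RNA from 18 samples of DD-GFP NIH3T3 cells was sequenced by the authors on an Illumina HiSeq, aligned to mm9 and counted on RefSeq genes with DNAnexus. The aligner, its version and the kit used for each library, of 2 that the study names, are not given in the sources used here. For each gene the authors deposited an estimated count without normalization, rounded to 4 significant digits. Per sample, 17.7% to 23.2% of the low counts were not whole. They also deposited RPKM, made by the authors from count, length and total, a score (the RPKM after subtraction of the mean and division by the SD) and a signal (RPKM over its root mean square), and neither of the latter was used. Values were joined by gene name. For 741 of the 20207 genes, none of them a member, the coordinates differed between samples. Counts of these 741 genes can cover unlike lengths, and the part of this in the calls was not tested.

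Groups came from the labels. Counts were rounded and fitted with edgeR 4.0.16 in R 4.3.3 (TMM, quasi-likelihood, 3 against 3 samples, no covariates), and Benjamini-Hochberg adjustment ran over the 12731 genes that had 1 read or more in each of the 18 samples, with a threshold of 0.05. The fit was tested on simulated data. Standard errors came from the log2 fold change and its F statistic, and so cover the spread between samples. CPM was scaled by TMM over the 18 samples, with 1 CPM added before log2. Intervals from 3 reads cover counting error only. The replicates of a group differed by more than sampling noise (chi-square per degree of freedom 14.9 to 818.3 over 12171 genes), so each was counted as its own library.

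The members and lists were chosen with earlier results of these data known, so no p-value is given for a member. Those of list genes describe these samples and are no independent support. Named genes are the members, Ddit3, Ppp1r15a (listed as Myd116), Cdkn1a, Mdm2, Atf4, Atf3, Map3k4 and Gadd45gip1 in all comparisons with control, up to 6 list genes per comparison with the largest change past the threshold (samples not overlapping, at least 50 reads on average in the higher group), and the 3 genes nearest to each member in pattern. Mapk14, Map2k3, Map2k6, Map2k4, Mapk11, Pcna and Hnrnpd, and Ccnb1 at 405 min of tunicamycin, lie outside this rule and were named after their values were seen, to complete counts. Trp53 also lies outside it and was named after its values were seen, beside its targets. The values of Ccnb1, Myc and Cebpb in groups where the rule did not name them, and those of Map2k7, were also added after they were seen. Alternatives were no filter on low counts, filterByExpr, DESeq2 1.42.0 size factors and its Wald test, total counts, 1 fit of all 6 groups, a block for the replicate number, a GC offset (lowess, span 0.3, from the longest GENCODE transcript, for 96.7% of the 20207 genes) alone and with the block, and leaving out each replicate. Same-numbered samples deviated together in all 3 pairs for Tu 135 min and control (correlation across genes of the deviations from the group mean 0.342, 0.322 and 0.299), and not in the other comparisons. The numbers come from the labels. The GC tilts of these libraries also ran in parallel, at 0.44, −0.22 and −0.23 in control and 0.59, −0.29 and −0.29 in Tu 135 min. Whether the numbers pair the samples was not tested. Promoter windows came from the mm9 genome and the gene starts of the files, and were cut for the 18282 genes with 1 position and strand. Python 3.11.15 with pandas 2.3.3, numpy 2.4.6, Biopython 1.88 and matplotlib 3.10.9 was used for the rest.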

Additional observations from a re-analysis of the deposited data

Results flagged for a closer look

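Gadd45g lay on opposite sides of control in different stressed groups. Its log2 fold change from control was −0.57 at 405 min of tunicamycin, with all 3 samples below all control samples, and 2.93 and 2.81 at 45 and 135 min of HS and 1.27 and 0.95 at 45 and 135 min of tunicamycin, each with all 3 samples above. The difference between these effects was not tested. At 135 min, HS and tunicamycin differed in Atf3, by 3.42 in log2 (higher under HS), and in Egr1, by −3.22 (lower under HS), in the direct edgeR fit of the 2 groups. Both calls were lost without HS 135 min replicate 3, Tu 135 min replicate 2 or Tu 135 min replicate 3, and with the replicate block (adjusted p = 0.328 for both). No group had enough samples for a test of single outlying samples.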

How the results depend on the processing

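Every log2 fold change of the 3 members against control kept its direction under all alternatives and with each replicate left out, and of the other comparisons only that of Gadd45g between the HS times changed sign. Under the other settings, 261 member values stayed within 1 SD of the replicates and 9 moved farther: with the GC offset, Gadd45a at 45 min of HS was 1.30 against control (1.26 with the replicate block) and −2.37 against Tu 45 min (−2.41 with the block, −2.95 on total counts), and at 405 min of tunicamycin Gadd45b was 0.95 (0.95 with the block) and Gadd45g −0.82 (−0.80 with the block). For Gadd45b and Gadd45g the SD was wide in the HS groups, where 1 library stood apart, so larger shifts stayed within it. Gadd45g at 45 min of HS went from 2.93 to as low as 2.17 against control without being among the 9. Against Tu 45 min it went from 1.68 to 1.0, also within the SD. RPKM rescaled by TMM gave Gadd45a 19.4 and 37.4 at 45 and 135 min of HS and 121 at 45 min of tunicamycin, and Gadd45g 39.7 at that time. On total counts the median of all genes moved to −0.19 in both HS comparisons with control, to −0.33 between HS 45 min and Tu 45 min and to −0.18 between HS 135 min and Tu 135 min, and the members moved with it.

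Counts of partners and regulators passing the threshold also depended on the processing. These are counts of calls, so they cannot be set against the log2 shifts of the members. For HS 45 min (0) the count was 7 with DESeq2 and 11 in 1 fit of all groups. For HS 135 min (9) it was 18 in 1 fit of all groups, 15 with the GC offset and 0 with the replicate block. For Tu 45 min (10) it was 17 with DESeq2, 6 in 1 fit of all groups and 4 with the block, and for Tu 135 min (3) it was 5 without a filter, 7 with DESeq2, 5 in 1 fit of all groups, 6 with the GC offset, and 0 with the block, alone or with the GC offset. With 1 replicate left out the counts ran from 0 to 31, 1 to 12, 4 to 18, 0 to 6 and, for Tu 405 min (23), 20 to 29, in the same order. Over all genes, edgeR called 0, 941, 786, 17 and 5960 in these comparisons. With 1 replicate left out this ran from 0 to 5786, 11 to 2467, 58 to 2499 and 0 to 61 in the first 4. DESeq2 called 451, 2159, 1843 and 639, 1 fit of all groups 1345, 3243, 632 and 411, the block 0, 0, 21 and 0, and the GC offset 0, 2445, 1934 and 217, with 0, 650, 607 and 0 when the block was added. The cause was not tested. Outside Tu 135 min against control, same-numbered samples did not deviate together in all 3 pairs (correlations from −0.836 to 0.796).

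Some values that had missed the threshold changed sign. Cdkn1a at 405 min of tunicamycin was −0.04 with the GC offset and −0.03 with the block added. Gadd45gip1 at 135 min of tunicamycin was −0.06 and 0.00 under the same settings. Map3k4 at 135 min of HS was −0.01 without a filter, −0.16 on total counts and −0.03 with the GC offset, with or without the block, and 0.08 at 45 min of tunicamycin on total counts. Mdm2 at 45 min of HS was 0.07 with the GC offset, with or without the block. With 1 replicate left out, Cdkn1a ran from −0.23 to 0.04 at 45 min of HS and from −0.06 to 0.06 at 135 min of tunicamycin, Gadd45gip1 from 0.00 to 0.39 and from −0.20 to 0.19 at 45 and 135 min of tunicamycin, Map3k4 from −0.05 to 0.06 at 135 min of HS and from −0.13 to 0.07 and −0.10 to 0.01 at 45 and 135 min of tunicamycin, and Mdm2 from 0.00 to 0.18 at 45 min of tunicamycin.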
